A study of Mus musculus with 6 samples.

Results

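Pericytes, the mural cells wrapped around brain capillaries, were compared between mice that had been fear conditioned and kept from recall (NoFR) and mice that had never been shocked (NoFC). They were taken from a single-cell RNA sequencing experiment on the mouse amygdala, in which sorting had aimed at astrocytes and pericytes had come along with the gate. A barcode was taken as a pericyte when it had at least 500 genes, under 6% mitochondrial UMIs (unique molecular identifiers, which count captured RNA molecules), at least 10 UMIs of Vtn and Rgs5 together, at most 5 of Slc1a2 and Slc1a3 together, under 5 of Acta2 and under 3 of Dcn. Its mouse was read from the strongest hashtag, an antibody-borne barcode given to the cells of each animal before pooling, which had to have at least 10 UMIs and 3 times those of the next. Of 13546 barcodes in the series, 2188 met the gate, 1511 of these had a hashtag call, 990 belonged to 1 of the 16 listed mice and 509 to the 8 mice compared here. The remaining 521 barcodes with a call (34.5%) carried a hashtag with no listed mouse in their library and were not used.

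By the sample labels the mice were male, wild type and of strain C57BL/6N, and they had been habituated to the conditioning chamber. NoFC mice (n = 4) then explored it without shocks, and NoFR mice (n = 4) received foot shocks there and stayed in their home cages the next day. Conditioned mice taken after the shocks (FC, n = 4) and mice returned to the chamber for recall (FR, n = 4) entered the same fit. The methods give tissue collection at 90 min after behaviour began. They do not say how this applies to NoFR mice, which stayed in their home cages on the day after conditioning. Tissue was dissociated with inhibitors of transcription and translation in the buffers. Foot shocks, the extra day and a visit to the chamber shortly before dissection all separated NoFR from NoFC mice and cannot be told apart. Behaviour was run in the light phase, and the sources used here do not give the clock time at which each mouse was taken. Library 1 held NoFC mice 1 and 2 with NoFR mice 1 and 2, library 2 held NoFC mouse 3, and library 3 held NoFC mouse 4 with NoFR mice 3 and 4.

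Pericytes regulate capillary diameter, the basement membrane and the blood-brain barrier. Like most cells they run a circadian clock, in which the activators ARNTL and CLOCK (or NPAS2) switch on the genes of their own repressors, the period and cryptochrome proteins, and of the nuclear receptors REV-ERBα and REV-ERBβ, which in turn silence Arntl. The same activators drive the PAR bZIP factors DBP, TEF and HLF, which pass the rhythm on to other genes. Glucocorticoids, the adrenal hormones released in a daily rhythm and under stress, act on the same cells through the receptor encoded by Nr3c1.

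The mice gave 69, 49, 104 and 65 pericytes in NoFC and 55, 38, 81 and 48 in NoFR, with UMI sums per mouse from 266361 to 604757 in NoFC and from 187654 to 425182 in NoFR. Median UMIs per pericyte were 5224 ± 233 (SD, n = 4) in NoFC and 4988 ± 214 (n = 4) in NoFR. The mice ranged from 5001 to 5549 in NoFC and from 4719 to 5163 in NoFR, with overlap (2-sided exact permutation test, p = 0.20). Cells per mouse, genes per cell and the mitochondrial share overlapped between the groups as well (exact permutation p = 0.37, 0.31 and 0.46). The median UMIs of a pericyte's strongest hashtag were 18 to 22 in NoFC and 21 to 26 in NoFR mice (exact permutation p = 0.086), and the part of this in the results was not tested. No pericyte barcode was shared between libraries. The sample labels call the sorted cells astrocytes, whereas all 10 pericyte markers outside the gate, among them Pdgfrb, Kcnj8, Abcc9 and Atp13a5, were found in every group. They summed to 13866 to 15143 CPM in NoFC and 14198 to 14552 CPM in NoFR mice. CPM are the UMIs of a gene per 1000000 UMIs, in a mouse's pericytes, of the genes kept for the main test, TMM-normalized.

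Markers of other cell types summed to less than the pericyte markers, and their summed levels overlapped between the groups in every list. RNA of other cells may thus be present in these sums, and its part in the results was not tested. The 12 astrocyte markers summed to 1120 to 1267 CPM in NoFC and 1104 to 1238 CPM in NoFR. The 12 endothelial markers summed to 434 to 547 and 436 to 538 CPM. Only 1 marker in each of these lists, Gfap and Cdh5, was at 0 in all 8 mice, and the others were found. Smooth muscle markers (7 genes) summed to 110 to 181 CPM in NoFC and 109 to 271 CPM in NoFR with Cnn1 and Actg2 at 0, and perivascular stromal markers (7 genes) to 443 to 547 and 464 to 573 CPM with Lum, Col1a1, Pdgfra and Slc47a1 at 0. Microglial markers (10 genes) reached at most 85.3 CPM with Csf1r and Tmem119 among 6 at 0, neuronal markers (7 genes) at most 56.6 CPM with Snap25 and Stmn2 among 4 at 0, and oligodendrocyte markers (8 genes) at most 23.0 CPM with Mbp and Mog among 5 at 0. Markers of oligodendrocyte precursors (6 genes) reached at most 3.16 CPM with 5 at 0, and those of red blood cells (5 genes) at most 11.3 CPM with 4 at 0.

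Summed over each mouse's pericytes, 77 of 6337 genes differed between the groups in edgeR's quasi-likelihood test with Benjamini-Hochberg adjustment (adjusted p under 0.05). Of these, 32 (0.505% of genes tested) were higher and 45 (0.71%) were lower in NoFR than in NoFC pericytes. Without adjustment, 566 genes (8.93%) had p under 0.05. The median log2 fold change of all genes tested was 0.0032. TMM normalization brings this median near 0, so it cannot show a shift shared by most genes. Called genes lay between -3.55 and -0.39 when lower and between 0.38 and 3.01 when higher. In 38 of the 45 lower genes every NoFR mouse lay below every NoFC mouse, a separation that 2.43% of all genes tested showed in this direction, and in 23 of the 32 higher genes every NoFR mouse lay above, against 2.64% of all genes. Counts were summed over each mouse's pericytes and not compared cell by cell, so fewer cells expressing a gene and less RNA per cell were not told apart.

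**Figure D1:**
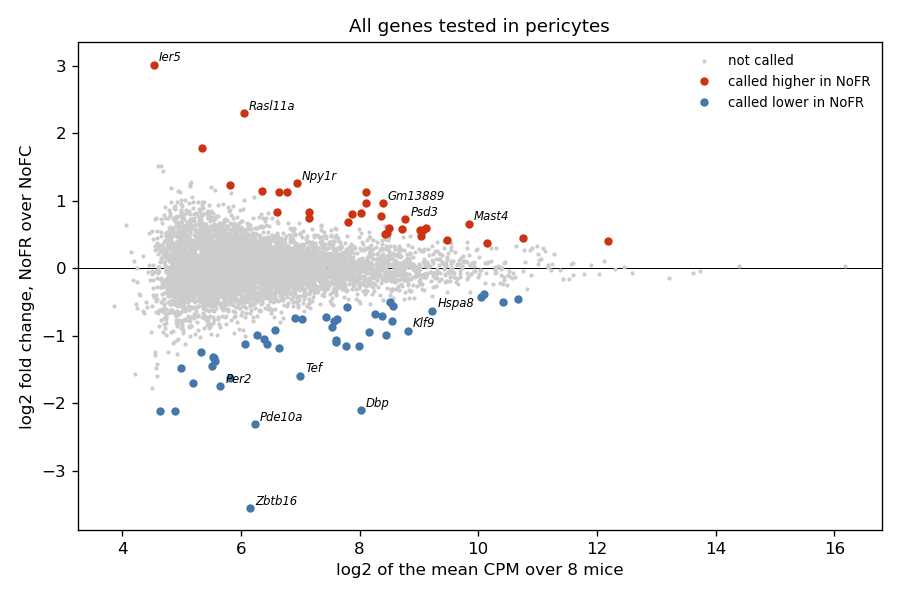
Each point is a gene tested in pericytes, with the log2 of its mean CPM over the 8 mice on the x axis and the log2 fold change of NoFR over NoFC on the y axis. Red points (32) were called higher and blue points (45) lower, and Zbtb16, Pde10a and Dbp lie lowest among the labelled genes.

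Genes of the circadian clock formed the first group. All 3 PAR bZIP genes tested, all 3 period genes and both REV-ERB genes fell in NoFR pericytes, and the activator genes Arntl and Npas2, too scarce for the main test, moved the other way in a test with a lower count filter. To show what lies upstream of the called genes of the PAR bZIP and period lists, their promoters were read from RefSeq (GRCm38.p6) as the 250 bases before the transcript start, and 5 of 6 genes had an entry. Per2 is not shown. They were searched on both strands for the E-box CACGTG, the palindrome that ARNTL and its partners bind, and for the D-box TTATGTAA (TTACATAA on the other strand) or TTACGTAA, the element that PAR bZIP factors bind. No E-box overlapped a D-box. Capitals mark each match, and the windows read 5′ to 3′ towards the gene.
Dbp (chr7:45704997-45705246, forward strand): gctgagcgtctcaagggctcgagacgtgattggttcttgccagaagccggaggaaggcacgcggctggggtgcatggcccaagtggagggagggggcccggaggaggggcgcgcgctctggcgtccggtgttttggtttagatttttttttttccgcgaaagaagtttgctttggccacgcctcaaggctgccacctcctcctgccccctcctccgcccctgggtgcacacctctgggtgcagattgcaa
Tef, upstream start (chr15:81802423-81802672, forward strand): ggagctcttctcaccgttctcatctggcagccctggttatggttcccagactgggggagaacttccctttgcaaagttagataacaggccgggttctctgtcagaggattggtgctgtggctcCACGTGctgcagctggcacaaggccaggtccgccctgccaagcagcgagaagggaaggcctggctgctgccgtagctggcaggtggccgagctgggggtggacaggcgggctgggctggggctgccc
Tef, downstream start (chr15:81811164-81811413, forward strand): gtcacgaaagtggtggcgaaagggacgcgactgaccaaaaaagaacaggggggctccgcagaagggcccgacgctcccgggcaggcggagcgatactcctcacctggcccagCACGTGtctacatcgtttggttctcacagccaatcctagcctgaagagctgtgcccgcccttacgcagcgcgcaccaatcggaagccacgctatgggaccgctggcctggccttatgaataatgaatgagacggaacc
Hlf (chr11:90390918-90391167, reverse strand): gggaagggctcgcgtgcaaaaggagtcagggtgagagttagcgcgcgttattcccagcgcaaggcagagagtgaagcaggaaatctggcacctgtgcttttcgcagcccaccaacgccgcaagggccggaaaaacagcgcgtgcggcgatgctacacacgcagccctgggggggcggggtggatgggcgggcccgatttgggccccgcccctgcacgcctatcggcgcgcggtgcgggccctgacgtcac
Per1, upstream start (chr11:69098699-69098948, forward strand): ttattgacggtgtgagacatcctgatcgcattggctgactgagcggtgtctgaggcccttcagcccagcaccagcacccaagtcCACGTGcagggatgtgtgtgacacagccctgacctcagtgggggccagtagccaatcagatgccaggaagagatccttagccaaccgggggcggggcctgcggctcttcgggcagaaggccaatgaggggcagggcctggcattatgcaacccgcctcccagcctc
Per3 (chr4:151044666-151044915, reverse strand): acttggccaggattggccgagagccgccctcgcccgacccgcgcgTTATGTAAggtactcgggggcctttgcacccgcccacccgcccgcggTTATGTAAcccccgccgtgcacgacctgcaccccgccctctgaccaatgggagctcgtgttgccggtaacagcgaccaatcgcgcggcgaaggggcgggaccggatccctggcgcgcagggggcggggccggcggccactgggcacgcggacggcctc

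Both Tef starts and the upstream Per1 start held 1 E-box each, 127, 138 and 166 bases before the start, whereas 6.02% of all 32851 RefSeq promoter windows of this length held one. Per3 held 2 D-boxes, 205 and 158 bases before its start, against 0.931% of all windows with at least 1. The windows of Dbp, Hlf, the other Per1 start, Nr1d1 and Nr1d2 held neither motif. In the GENCODE vM21 annotation the gene model begins further upstream for both starts of Per1 and of Tef, and for Dbp and Nr1d2. Their windows thus lie within the gene, for Dbp and Nr1d2 in part. A match describes letters and not a bound site.

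Dbp (ENSMUSG00000059824, GRCm38 chromosome 7, 45705088 to 45710203), a transcriptional output of the clock, had 472, 370, 398 and 436 CPM in the NoFC mice and 84.7, 62.3, 90.4 and 159 CPM in the NoFR mice. The groups were far apart, and the highest NoFR mouse stayed below the lowest NoFC mouse. Its log2 fold change was -2.11 ± 0.19 (SE), a level 4.31-fold lower (edgeR quasi-likelihood test with Benjamini-Hochberg adjustment, adjusted p = 1.7e-13). Within library 1 the group means were 421 and 73.5 CPM, and within library 3 they were 436 and 125 CPM, so the gap stood in each library that held both groups.

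Tef (ENSMUSG00000022389, chromosome 15, 81802421 to 81826863), which encodes a second factor of this family, had 208, 153, 193 and 218 CPM in NoFC and 36.3, 56.6, 75.4 and 87.6 CPM in NoFR mice. It was 3.02-fold lower in NoFR (log2 fold change -1.59 ± 0.22, edgeR adjusted p = 6.6e-07). Hlf (ENSMUSG00000003949, chromosome 11, 90336536 to 90390895) had 499, 450, 483 and 423 CPM in NoFC and 206, 170, 274 and 271 CPM in NoFR, 1.99-fold lower (log2 fold change -0.99 ± 0.15, edgeR adjusted p = 4.5e-06). Neither gene overlapped between the groups. The fourth member of this list, Nfil3, a repressor that competes for the D-box, had 1 UMI in all NoFC and 3 UMIs in all NoFR pericytes and was not tested. The called share of this list was 3 of the 3 tested and 4 listed, beside 0.71% of all genes called lower, and its median log2 fold change was -1.59. Like the other lists it was chosen with earlier results of these data known, so this share describes the list and is not a test.

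Of the 8 listed period, cryptochrome and other repressors of the clock, 5 were tested, 3 fell and none rose. Their median log2 fold change was -1.70, and 0.71% of all genes were called lower. Per2 (ENSMUSG00000055866, chromosome 1, 91415982 to 91459324) was tightly grouped in NoFC mice, at 74.2, 80.3, 77.9 and 82.1 CPM. In NoFR mice it had 12.1, 28.3, 22.6 and 25.0 CPM, and the groups held 115 and 23 UMIs. It was 3.37-fold lower in NoFR (log2 fold change -1.75 ± 0.34, edgeR adjusted p = 5.7e-04). Per3 (ENSMUSG00000028957, chromosome 4, 151003652 to 151044665), whose promoter carries both D-boxes shown above, had 53.5, 56.2, 49.6 and 63.2 CPM against 16.1, 17.0, 25.1 and 12.5 CPM. The groups again did not overlap, and Per3 was 3.25-fold lower (edgeR adjusted p = 0.0081), from 80 and 20 UMIs.

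Per1 (ENSMUSG00000020893, chromosome 11, 69095217 to 69109960), the period gene that is also a direct target of the glucocorticoid receptor, was less clearly separated. It had 65.3, 68.3, 92.1 and 130 CPM in NoFC and 44.3, 28.3, 30.1 and 79.3 CPM in NoFR mice, so that NoFR mouse 4 lay above NoFC mice 1 and 2, with a log2 fold change of -1.13 ± 0.29 (edgeR adjusted p = 0.022, exact permutation p = 0.086). The highest mouse of each group came from library 3. Bhlhe40 and Cry2, which encode further repressors, did not pass in the main fit, although every NoFR mouse lay below every NoFC mouse in both. Their log2 fold changes were -1.78 ± 0.54 (edgeR adjusted p = 0.091) and -0.62 ± 0.32 (adjusted p = 0.58). When every gene with at least 10 UMIs was kept, Bhlhe40 was called (-1.80 ± 0.50, edgeR adjusted p = 0.043) and Cry2 was not (adjusted p = 0.71).

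Both REV-ERB genes were lower. Nr1d1 (ENSMUSG00000020889, chromosome 11, 98767932 to 98775333) had 345, 309, 386 and 363 CPM in NoFC and 101, 181, 198 and 163 CPM in NoFR, 2.24-fold lower (log2 fold change -1.16 ± 0.16, edgeR adjusted p = 6.6e-07). Nr1d2 (ENSMUSG00000021775, chromosome 14, 18204054 to 18239127) had 247, 177, 251 and 205 CPM against 141, 108, 123 and 134 CPM, 1.66-fold lower (edgeR adjusted p = 0.013). Neither overlapped. Of the other members tested on the list of REV-ERB, ROR and activator genes, Rora had a log2 fold change of -0.17 ± 0.11 (edgeR adjusted p = 0.70) and Clock of 0.48 ± 0.20 (adjusted p = 0.35), and neither passed. The list, with 2 of 5 tested members lower and none higher, beside 0.71% of all genes called lower, had a median of -0.17. Without NoFC mouse 4 the Per1, Per3 and Nr1d2 calls were lost, and DESeq2's Wald test did not call Per1 and Nr1d2 (adjusted p = 0.17 and 0.074).

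Arntl (ENSMUSG00000055116, chromosome 7, 113207465 to 113314126), which encodes the activator BMAL1 that the REV-ERB proteins repress, went the other way. It had 5.94, 8.03, 5.31 and 9.48 CPM in NoFC and 28.2, 90.6, 52.8 and 66.8 CPM in NoFR mice, from 10 and 60 UMIs in all. These counts were below the filter of the main fit. In the fit that kept every gene with at least 10 UMIs, in which 0.27% of 12205 genes were called higher and 0.475% lower, its log2 fold change was 3.08 ± 0.50 (edgeR adjusted p = 1.3e-06). Npas2, which encodes a partner of BMAL1, had 0, 12.1, 3.54 and 0 CPM against 44.3, 45.3, 17.6 and 20.9 CPM, from 5 and 31 UMIs (log2 fold change 3.20 ± 0.70 in that fit, edgeR adjusted p = 0.0021). It was not called in library 1 alone or in libraries 1 and 3 (edgeR adjusted p = 0.38 and 0.061). Ciart, a repressor of the activators, went the way of the period genes, with 32.7, 20.1, 30.1 and 22.1 CPM against 0, 0, 7.54 and 4.17 CPM, from 40 and 4 UMIs (log2 fold change -2.73 ± 0.69, edgeR adjusted p = 0.016). These 3 genes were named after their values were seen. Of the listed clock genes that the main fit left out, Cry1 (43 and 18 UMIs) and Bhlhe41 (18 and 2 UMIs) did not pass in the wider fit.

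**Figure D2:**
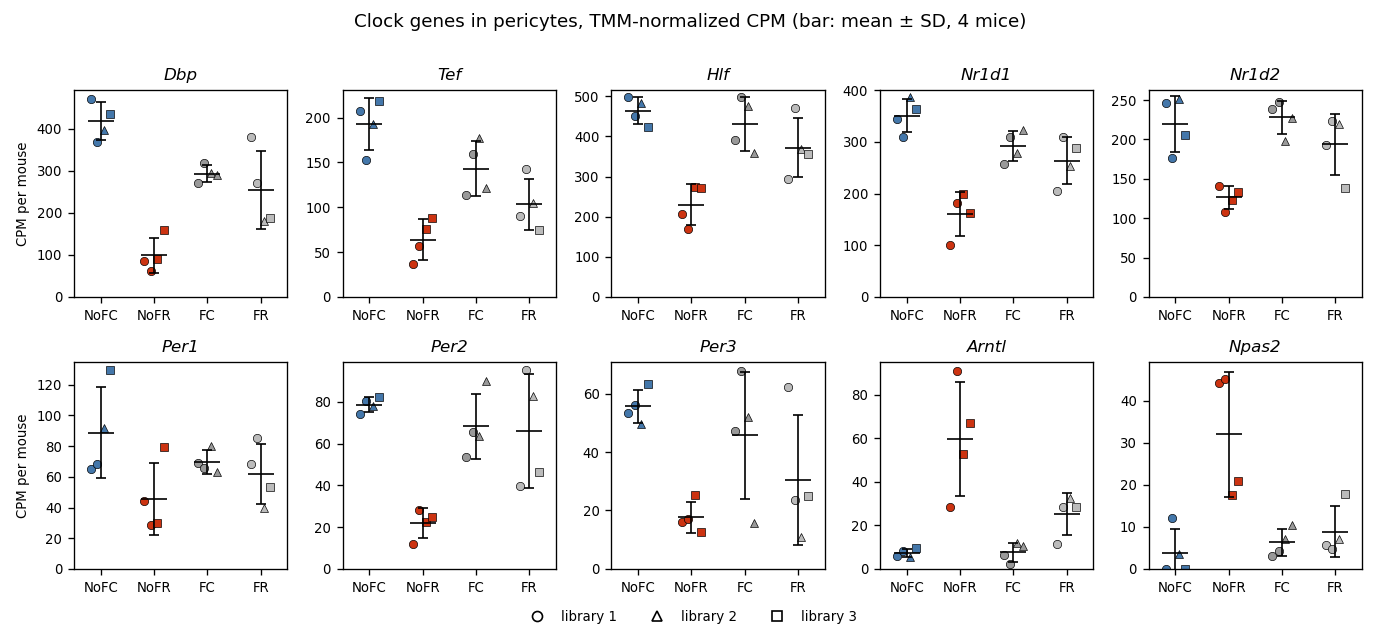
Each panel gives the CPM of a clock gene in the pericytes of every mouse (y axis) by group (x axis), with circles, triangles and squares for libraries 1, 2 and 3 and bars for the mean ± SD of 4 mice. Dbp, Tef, Hlf, Nr1d1, Nr1d2, Per2 and Per3 are lower in every NoFR mouse than in every NoFC mouse, Per1 overlaps, and Arntl and Npas2 are higher in every NoFR mouse.

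The other groups fell between these values for several of the genes. Dbp stood at 294 ± 20.2 CPM (SD, n = 4) in FC and 255 ± 92.9 CPM (n = 4) in FR mice, beside 419 ± 44.7 CPM in NoFC and 99.0 ± 41.5 CPM in NoFR. Arntl stood at 7.71 ± 4.38 CPM in FC and 25.2 ± 9.41 CPM in FR mice, beside 7.19 ± 1.92 and 59.6 ± 26.1 CPM. These values are given side by side, and their differences were not tested.

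A second group came from the list of the glucocorticoid receptor and its targets. Of 24 listed genes, 11 were tested, 5 fell (Zbtb16, Klf9, Cebpd, Tsc22d3 and Fkbp5) and none rose, with a median log2 fold change of -0.93. Over all genes tested, 0.71% were called lower and 0.505% higher. Klf9 is also known to follow the clock, as Per1 is known to respond to glucocorticoids, so these lists are not separate readouts. Tsc22d3 and Fkbp5 were named after their values were seen.

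Zbtb16 (ENSMUSG00000066687, chromosome 9, 48654297 to 48836222), a zinc finger transcription factor strongly induced by glucocorticoids in many cell types, showed the lowest fold change of all genes called. It had 80.2, 100, 149 and 193 CPM in NoFC and 12.1, 11.3, 12.6 and 12.5 CPM in NoFR mice, from 197 and 13 UMIs. Every NoFR mouse was near the same low level, 11.7-fold below NoFC (log2 fold change -3.55 ± 0.33, edgeR adjusted p = 5.3e-13). FC mice had 150 ± 32.8 CPM and FR mice 85.5 ± 21.5 CPM.

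Klf9 (ENSMUSG00000033863, chromosome 19, 23141226 to 23168134), a transcription factor induced through the glucocorticoid receptor, had 499, 522, 519 and 790 CPM in NoFC and 327, 362, 319 and 275 CPM in NoFR. It was 1.90-fold lower in NoFR (edgeR adjusted p = 1.6e-06), and NoFC mouse 4 stood above the other NoFC mice. Cebpd, a basic leucine zipper factor, had 368, 249, 351 and 483 CPM against 222, 238, 181 and 184 CPM, 1.92-fold lower (edgeR adjusted p = 5.0e-04), with NoFC mouse 4 again the highest. DESeq2's Wald test did not call Cebpd or Fkbp5 (adjusted p = 0.30 and 0.071).

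Tsc22d3, which encodes the anti-inflammatory protein GILZ, had 143, 88.4, 138 and 167 CPM in NoFC and 84.7, 62.3, 55.3 and 58.4 CPM in NoFR, 2.27-fold lower (edgeR adjusted p = 0.0034). Fkbp5, a co-chaperone of the glucocorticoid receptor and a common index of its activity, had 29.7, 56.2, 28.3 and 69.5 CPM against 4.03, 28.3, 5.02 and 16.7 CPM. It was 4.33-fold lower (edgeR adjusted p = 0.0089), from only 62 UMIs in all NoFC and 12 UMIs in all NoFR pericytes. NoFR mouse 2 lay just below the lowest NoFC mouse, at 28.305 against 28.333 CPM. Without NoFC mouse 4, the lone NoFC mouse of library 3, Zbtb16 and Klf9 stayed past the threshold and Cebpd, Tsc22d3 and Fkbp5 did not. In library 1 alone, with 2 mice a group, only Zbtb16 of the 5 was called, and Fkbp5 was not tested there.

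The receptor gene itself, Nr3c1, had 184, 229, 175 and 180 CPM in NoFC and 262, 243, 198 and 209 CPM in NoFR (log2 fold change 0.22 ± 0.16, edgeR adjusted p = 0.78). The targets Mt1, a metallothionein, and Ddit4, an inhibitor of mTORC1, had log2 fold changes of -0.34 ± 0.21 and -0.43 ± 0.32 and did not pass (edgeR adjusted p = 0.68 and 0.78). Sgk1, with 19 and 13 UMIs, fell below the filter of the main fit and was not called in the wider one (log2 fold change -0.27 ± 0.63, edgeR adjusted p = 0.99). Cdkn1a, also below the filter, was called higher in the wider fit (log2 fold change 4.00 ± 0.97, edgeR adjusted p = 0.0093), with 90.6 CPM in NoFR mouse 2 and at most 8.35 CPM in every other mouse of the 8.

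The cytosolic chaperones formed another group. Of 14 listed heat shock and chaperone genes, 11 were tested, 6 fell and none rose, beside 0.71% of all genes called lower. The median log2 fold change was -0.69. Hspa8, the constitutive HSP70 that folds new proteins, had 760, 655, 822 and 670 CPM in NoFC and 452, 543, 437 and 455 CPM in NoFR mice. It was 1.55-fold lower in NoFR (edgeR adjusted p = 5.7e-04). Hsp90aa1, the stress-inducible HSP90, had 410, 394, 418 and 411 CPM against 189, 266, 301 and 284 CPM, 1.64-fold lower (edgeR adjusted p = 0.0015). The small heat shock gene Hspb1 had 511, 422, 588 and 392 CPM against 230, 277, 279 and 305 CPM, 1.71-fold lower (edgeR adjusted p = 0.0023). None of these overlapped between the groups.

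The others called, named after their values were seen, were Dnaja1, an HSP40 co-chaperone (log2 fold change -0.69 ± 0.15, edgeR adjusted p = 0.0029), Hsph1, a nucleotide exchange factor of HSP70 (-1.38 ± 0.33, adjusted p = 0.0096), and Hspe1, the mitochondrial HSP10 (-0.74 ± 0.21, adjusted p = 0.048). Hsp90ab1, the constitutive HSP90 and the most abundant of the list, had a log2 fold change of -0.35 ± 0.11 and did not pass (edgeR adjusted p = 0.11). The inducible Hspa1a and Hspa1b, whose near-identical sequences can split or lose reads, had 36 and 20 UMIs and 29 and 3 UMIs in NoFC and NoFR, too few for the main test. Without NoFC mouse 4 the Hsph1 and Hspe1 calls were lost, as they were in DESeq2's Wald test (adjusted p = 0.081 and 0.25). Of 14 genes of endoplasmic reticulum stress tested, 0 were called by edgeR's quasi-likelihood test and 0 by DESeq2. An unadjusted p under 0.05 was found in 4, beside 8.93% of all genes, and the median was -0.27. Herpud1, an early gene of that stress response, had -0.73 ± 0.23 (edgeR adjusted p = 0.13).

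**Figure D3:**
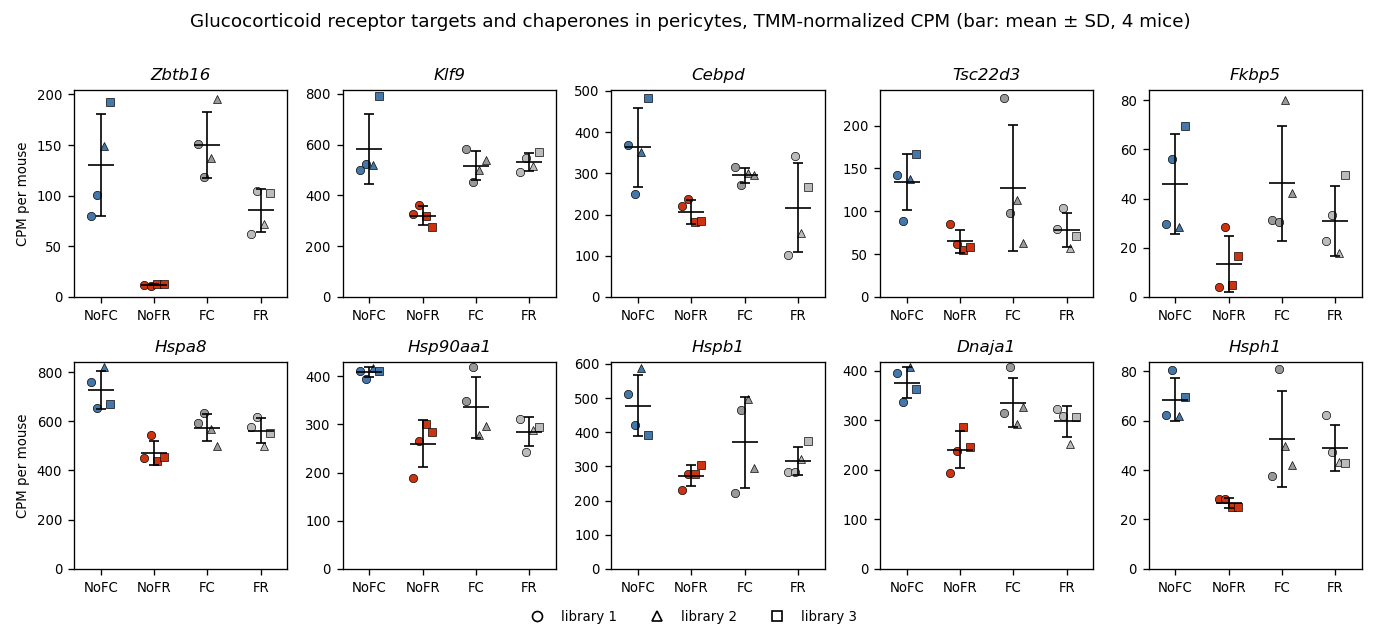
Each panel gives the CPM of a gene in the pericytes of every mouse (y axis) by group (x axis), with symbols for the library and bars for the mean ± SD of 4 mice. Only genes called lower are drawn, with glucocorticoid receptor targets in the top row and chaperones in the bottom row. Tested members that were not called, such as Ddit4 and Hsp90ab1, whose groups overlap, are left out. In all 10 panels every NoFR mouse lies below every NoFC mouse, a separation that 2.43% of all genes tested showed. For Fkbp5 the gap is only 28.305 against 28.333 CPM.

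Several lower genes belonged to none of these lists or to signalling lists. Pde10a (ENSMUSG00000023868, chromosome 17, 8525372 to 8986648), a phosphodiesterase that degrades cAMP and cGMP, had 86.1, 88.4, 158 and 164 CPM in NoFC and 20.2, 34.0, 17.6 and 33.4 CPM in NoFR mice, 4.96-fold lower (log2 fold change -2.31 ± 0.32, edgeR adjusted p = 6.6e-07). Its NoFC values fell into a lower pair from library 1 and a higher pair from libraries 2 and 3, all above the NoFR mice. Ifi30, a lysosomal thiol reductase, was 2.22-fold lower (297 ± 73.6 against 142 ± 34.8 CPM, SD, n = 4 each, edgeR adjusted p = 4.3e-06). Pdxk, the kinase that makes active vitamin B6, was 2.13-fold lower (264 ± 43.8 against 127 ± 9.88 CPM, edgeR adjusted p = 4.5e-06). Rgcc, a regulator of the cell cycle, was 2.09-fold lower (261 ± 32.2 against 128 ± 27.2 CPM, edgeR adjusted p = 7.9e-05).

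Rasl11a (ENSMUSG00000029641, chromosome 5, 146845071 to 146847726), a small GTPase of the RAS family, was the higher gene with the smallest p. It had 23.8, 28.1, 19.5 and 22.1 CPM in NoFC and 117, 108, 118 and 96.0 CPM in NoFR mice, 4.89-fold higher without overlap (log2 fold change 2.29 ± 0.31, edgeR adjusted p = 4.1e-07). Both groups were narrow, and the FC and FR mice stood at 42.6 ± 14.5 and 41.4 ± 10.5 CPM. Npy1r (ENSMUSG00000036437, chromosome 8, 66697192 to 66706792), the Y1 receptor through which neuropeptide Y constricts vessels, had 41.6, 84.4, 62.0 and 94.8 CPM in NoFC and 165, 187, 153 and 196 CPM in NoFR, 2.40-fold higher (log2 fold change 1.26 ± 0.22, edgeR adjusted p = 7.9e-05). The lowest NoFR mouse was well above the highest NoFC mouse.

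Among the other genes higher in NoFR were the predicted gene Gm13889 (230 ± 49.9 in NoFC against 439 ± 116 CPM in NoFR, edgeR adjusted p = 7.5e-06) and Asap2, a GTPase-activating protein for ARF (193 ± 33.8 against 362 ± 61.0 CPM, adjusted p = 9.7e-06). Mast4, a microtubule-associated kinase, rose from 718 ± 64.2 to 1112 ± 201 CPM and Psd3, an exchange factor for ARF6, from 335 ± 45.7 to 539 ± 33.9 CPM (edgeR adjusted p = 8.9e-05 and 1.5e-04). Sema5a, a semaphorin, rose from 187 ± 40.8 to 335 ± 28.2 CPM (edgeR adjusted p = 6.3e-04). All of these lay higher in every NoFR mouse than in every NoFC mouse, and each was still called by edgeR when any 1 of the 8 mice was left out. In library 1 alone, with 2 mice a group, Gm13889 and Asap2 were called. Mast4, Psd3 and Sema5a were not called there (edgeR adjusted p = 0.48, 0.32 and 0.50).

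**Figure D4:**
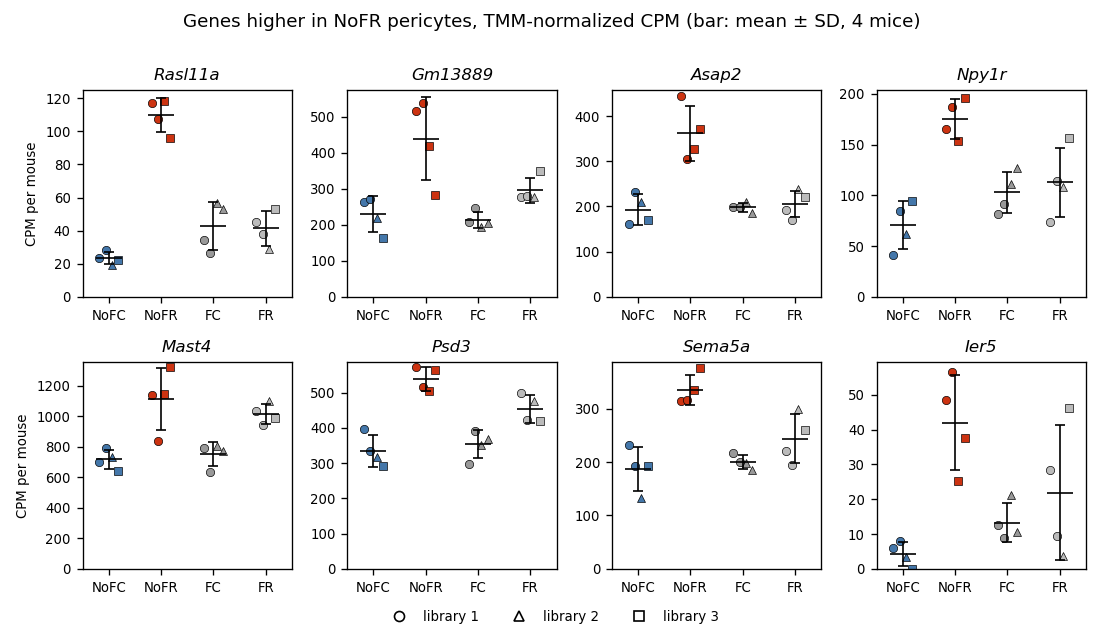
Each panel gives the CPM of a gene called higher in NoFR pericytes in every mouse (y axis) by group (x axis), with symbols for the library and bars for the mean ± SD of 4 mice. In all 8 panels every NoFR mouse lies above every NoFC mouse, a separation that 23 of the 32 genes called higher and 2.64% of all genes tested showed. Ier5 is at or near 0 in NoFC.

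Immediate early genes, which are induced within minutes of stimulation, gave 1 call. Of 29 listed genes, 10 were tested, 1 rose and none fell, and 5 had an unadjusted p under 0.05. Over all genes tested, 0.505% were called higher and 8.93% had an unadjusted p under 0.05. Log2 fold changes were positive in 5 and negative in 5, with a median of -0.024. The gene called was Ier5 (ENSMUSG00000056708, chromosome 1, 155096361 to 155099636), a target of heat shock factor 1, with 5.94, 8.03, 3.54 and 0 CPM in NoFC and 48.4, 56.6, 25.1 and 37.6 CPM in NoFR mice, from 6 and 41 UMIs (log2 fold change 3.01 ± 0.65, edgeR adjusted p = 0.0030). DESeq2 called 0 genes of this list, with no adjusted p for Ier5, and the Ier5 call was lost without NoFC mouse 4 and in library 1 alone. Jund and Ier3 had log2 fold changes of -0.52 ± 0.18 and -0.73 ± 0.23 and did not pass in the main fit (edgeR adjusted p = 0.19 and 0.12). Ier3 was called lower in library 1 alone (log2 fold change -1.42, edgeR adjusted p = 0.0096). Jund and Ier3 were each called lower in 1 of 8 fits that left out a mouse. Fos had 0 UMIs in NoFC pericytes and 1 UMI in NoFR. In NoFC, 3 UMIs of the 1566128 of all genes would be 1.92 per 1000000.

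Of the genes that the study followed in astrocytes, Adrb1, the β1 adrenergic receptor, had 0 UMIs in both groups. Per 1000000 UMIs of all genes, this allows up to 1.92 in NoFC and 2.63 in NoFR pericytes, limits that cover counting error only. Igfbp2, an IGF binding protein, had 3 and 0 UMIs. Adra1a, the α1A adrenergic receptor, had 17.8, 20.1, 53.1 and 47.4 CPM in NoFC and 12.1, 17.0, 0 and 25.0 CPM in NoFR, with overlap and a log2 fold change of -1.42 ± 0.59 that did not pass (edgeR adjusted p = 0.37).

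Receptors and second messengers of vascular tone gave calls in both directions, set here beside 0.505% of all genes called higher and 0.71% called lower. Of 12 receptors of vasoactive agents tested out of 30 listed, Npy1r rose and P2ry14, a receptor for UDP-glucose, fell (1206 ± 63.5 in NoFC against 904 ± 67.5 CPM in NoFR, edgeR adjusted p = 0.013), and the list median was 0.096. The guanylyl cyclase subunits Gucy1a1 and Gucy1b1, which sense nitric oxide, had log2 fold changes of 0.30 ± 0.12 and 0.09 ± 0.10 and did not pass (edgeR adjusted p = 0.31 and 0.88). Of 23 RGS, phosphodiesterase and cAMP genes tested out of 28, Pde4d rose by 0.45 ± 0.11 on the log2 scale (edgeR adjusted p = 0.015), and Pde10a and Rgs4 fell. Rgs4, a brake on G protein signalling, had 1880, 1342, 1902 and 2366 CPM in NoFC and 1492, 1138, 1339 and 1536 CPM in NoFR mice, which overlap (edgeR adjusted p = 0.012, exact permutation p = 0.086). DESeq2's Wald test did not call Pde4d or Rgs4 (adjusted p = 0.087 and 0.085), and both were called in 4 of 8 fits that left out a mouse.

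Of 22 pericyte identity genes, all tested, 2 fell (P2ry14 and Rgs4), none rose and 9 had an unadjusted p under 0.05. Over all genes, 0.71% were called lower and 8.93% had an unadjusted p under 0.05. Log2 fold changes were positive in 8 and negative in 14, with a median of -0.13. Atp13a5, a pericyte marker of the brain and the most abundant of the list, had a log2 fold change of 0.11 ± 0.09 (edgeR adjusted p = 0.81). Pdgfrb, the receptor that recruits pericytes to vessels, had 1666, 1639, 1650 and 1915 CPM against 2298, 1964, 1967 and 2262 CPM. It was higher in every NoFR mouse yet did not pass (log2 fold change 0.30 ± 0.09, edgeR adjusted p = 0.11). Of 21 basement membrane and matrix genes tested, Timp3, an inhibitor of metalloproteinases, fell (log2 fold change -0.57 ± 0.16, edgeR adjusted p = 0.048) with overlap between the groups. Timp3 was not called by DESeq2 (adjusted p = 0.34) or with the 8 mice alone (edgeR adjusted p = 0.068), and was called in 3 of 8 fits that left out a mouse. Col4a1, a basement membrane collagen, had 0.38 ± 0.11 and did not pass (adjusted p = 0.083).

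In 11 other lists, 0 of 282 genes were called by edgeR's quasi-likelihood test in the main fit and 0 by DESeq2. An unadjusted p under 0.05 was found in 39 of the 282, a larger share than the 8.93% of all genes. The lists were the contractile genes (14 tested, median log2 fold change -0.047), solute carriers (10, 0.048), ion channels and calcium handling (20, 8.4e-04), growth factors and receptors of the vessel wall (21, -9.7e-04), insulin, IGF and FoxO signalling (14, -0.063), hypoxia and glycolysis (11, -0.32), interferon and inflammation (12, -0.17), cholesterol and lipid synthesis (10, -0.015), cytosolic ribosomal proteins (80, -0.033), the nuclear-encoded respiratory chain (77, -0.062) and mitochondrially encoded genes (13, 0.034). All 11 glycolysis and hypoxia genes tested had negative log2 fold changes and 4 had an unadjusted p under 0.05, but none passed in the main fit. Pfkl, a subunit of phosphofructokinase, had a log2 fold change of -0.97 ± 0.30 (edgeR adjusted p = 0.11) and Aldoa, aldolase A, -0.32 ± 0.12 (adjusted p = 0.30). Trpc4 and Abcc9, the latter a subunit of the KATP channel, had log2 fold changes of -0.44 ± 0.13 and -0.31 ± 0.10 without passing (edgeR adjusted p = 0.080 and 0.15). Some alternatives did call members of these lists, and examples follow. In the fit that kept every gene with at least 10 UMIs, Trpc4 and Pdgfa were called lower (edgeR adjusted p = 0.043 for each). With the 8 NoFR and NoFC mice alone, Igf2r was called higher (edgeR adjusted p = 0.043). When a mouse was left out, Pdgfa was called lower in 2 of 8 fits. Pfkl and the respiratory chain gene Cox5b were each called lower in 1 of 8 such fits.

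**Figure D5:**
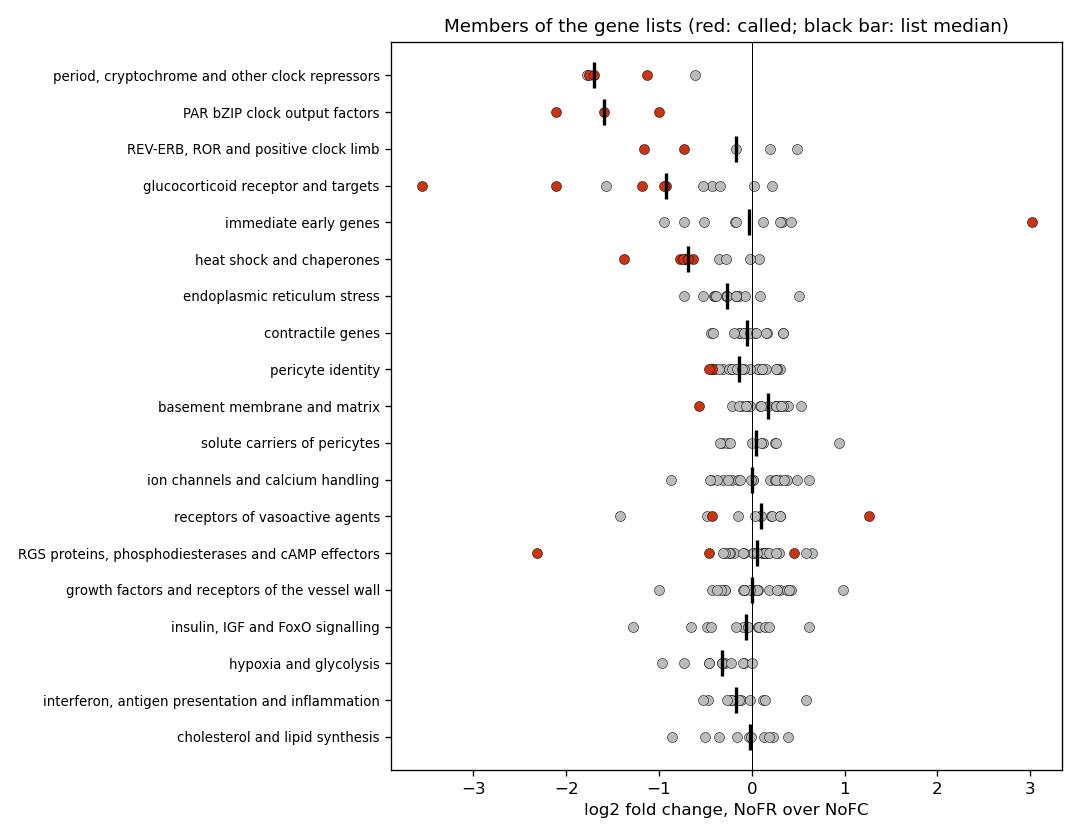
Each point is a tested member of a gene list (rows), placed by its log2 fold change of NoFR over NoFC (x axis), with called genes in red and a black bar at the list median. The medians of the PAR bZIP and clock repressor lists lie at -1.59 and -1.70, those of the glucocorticoid and heat shock lists at -0.93 and -0.69, and the other medians between -0.32 and 0.17.

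The number of calls varied with the mice included. Leaving out NoFC mouse 4 left 16 higher and 20 lower calls, leaving out NoFR mouse 1 left 22 and 28, and library 1 alone left 9 and 15. The 3 PAR bZIP genes, Per2, Nr1d1 and Zbtb16 were called in each of these.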

How the data were processed

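The authors deposited filtered barcode matrices of UMI counts per gene and hashtag, aligned to mouse mm10 (the methods name Cell Ranger 3.0, the file headers 7.0.0), for 3 libraries of 42350059, 31700569 and 33368825 gene UMIs, with a table of hashtags and mice. The sources used here do not state the strand used in counting, and no doublet caller was run beyond the hashtag rule. Pericytes were selected and assigned to mice as described, and their counts were summed per mouse. Genes were tested with edgeR 4.0.16 (TMM, filterByExpr by group, glmQLFit and glmQLFTest) on all 16 mice with library as covariate, Benjamini-Hochberg adjustment over 6337 genes and a threshold of 0.05, after a test on simulated data. CPM values are TMM-normalized. DESeq2 1.42.0, other filters, gates and hashtag rules, and leaving out each mouse were tried as alternatives. Single values were compared by 2-sided exact permutation tests (scipy 1.17.1), which cannot go below p = 0.0286 with 4 mice against 4. Genes named were the 20 called genes with the smallest p, for each list its member with the smallest p and the most abundant one and up to 2 more with an unadjusted p under 0.05, and Adra1a, Adrb1, Fos and Igfbp2; genes of the gate were not read as results, and 1 gene this rule names is not reported here. Members and lists were chosen with earlier results of these data known. Gene coordinates come from GENCODE vM21 on GRCm38, the assembly of mm10, matched by Ensembl ID (151 of 151 genes).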

Additional observations from a re-analysis of the deposited data

Results flagged for a closer look

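In 190 checks of a gene or measure within a group of 4 mice, 11 had 1 mouse far from the other 3, where chance flags about 1 in 20 groups. NoFC mouse 4 stood apart in 5 of them. Its Klf9 level was 790 CPM against 499 to 522 CPM in the other NoFC mice, Pdgfrb 1915 against 1639 to 1666 CPM, Slc6a20a, an amino acid transporter, 2385 against 1762 to 1841 CPM, Txnip, an inhibitor of thioredoxin, 145 against 97.4 to 100 CPM, and Hsp90ab1 840 against 1113 to 1155 CPM. NoFC mouse 3 was low in Notch1, at 444 against 471 to 475 CPM, and had a median of 2587 genes per pericyte against 2422 to 2445. Among NoFR mice, mouse 2 was high in Hspa8, at 543 against 437 to 455 CPM, and low in Slc16a12, a creatine transporter, at 470 against 600 to 621 CPM. NoFR mouse 4 was high in Herpud1, at 87.6 against 67.8 to 68.5 CPM, and NoFR mouse 1 in Ifitm3, an interferon-induced membrane protein, at 617 against 459 to 484 CPM.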

How the results depend on the processing

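Against 32 higher and 45 lower calls, leaving out 1 mouse gave 16 to 38 higher and 20 to 42 lower calls, DESeq2 gave 18 and 24, library 1 alone 9 and 15, and the stricter hashtag rule (20 UMIs, 5 times the next) 13 and 12 of 3633 genes tested. Higher calls numbered 21 both with the 8 NoFR and NoFC mice alone and with libraries 1 and 3. All 18 and 24 DESeq2 calls were among the main calls, and under every one of the 22 alternatives each main call that was tested kept its direction. Of 35 called genes described, 8 (Dbp, Tef, Hlf, Nr1d1, Zbtb16, Pde10a, Asap2 and Gm13889) were called under each alternative, and Rasl11a in the 21 that tested it. The most were lost in library 1 alone (20), with that hashtag rule (14), without NoFC mouse 4 (13), and with DESeq2 or without NoFR mouse 1 (9 each). Every mouse had at least 30 pericytes, so that minimum changed nothing. Uncalled genes near 0 changed sign: Ndufa4l2 with a hashtag 2 times the next (log2 fold change 0.0084), mt-Atp6 with the stricter gate (-0.0022), and, when 1 mouse was left out, Cald1 (-0.052 to 0.0095) and Ndufa4l2 (-0.078 to 0.050). The cause was not tested. The differences, NoFR minus NoFC, in pericytes per mouse (-24.8 to -5.5), median UMIs per pericyte (-310 to -128), median genes per pericyte (-110 to -36.6) and mitochondrial share of UMIs, percent (0.0011 to 0.069) kept their sign without any 1 mouse. No paired analysis was possible because the replicate numbers in the labels number pooled libraries and not mice, and the mice compared carry no pairing. Genes with few UMIs in pericytes, among them Fos and Adrb1, could not be compared at this depth.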
